A study of Homo sapiens with 18 samples.

Results

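The question here was whether the p53 response to Nutlin was the same when CDK4/6 had already been inhibited. It was read from a design with 2 factors, in which SJSA-1 cells received Nutlin, PD0332991 (palbociclib), both or neither, in 3 libraries each, 12 of the 18 libraries of the series. For each gene the interaction was (N+PD30 - PD30) - (Nutlin - DMSO) in log2, that is, how far the change with Nutlin in the presence of PD0332991 departed from the change without it. Of 16113 genes tested, 1647 (10.2%) had an interaction past an adjusted p of 0.05 and an absolute log2 of 1 in the quasi-likelihood test of edgeR, adjusted by the method of Benjamini and Hochberg, which is the rule behind every call below.

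SJSA-1 is an osteosarcoma cell line, so every group is the same established line and no other cell model was part of the comparison. The DMSO group received the solvent alone, the Nutlin group 20 µM Nutlin for 6 h, the PD30 group 10 µM PD0332991 for 30 h, and the N+PD30 group both, with PD0332991 kept on throughout. The labels give 1 dose and 1 time for Nutlin, and the drugs were not varied otherwise in these 12 libraries. The study calls its triplicates biological, while the labels do not say whether the libraries of a group came from separate cultures; p-values measure the spread between these libraries.

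Nutlin binds the pocket of MDM2 that holds p53. Freed from this ubiquitin ligase, p53 accumulates and activates genes for cell cycle arrest, cell death and repair, among them MDM2 itself, which closes a feedback loop. Palbociclib blocks CDK4 and CDK6, which phosphorylate RB1 with cyclin D, so that hypophosphorylated RB1 keeps E2F factors from activating genes of S phase, and p53 reaches the same genes through p21, the product of CDKN1A, and the DREAM repressor complex. SJSA-1 is known for amplification of the chromosome segment that carries MDM2 and CDK4, and it retains functional p53.

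Each library held between 12704845 counts (N+PD30 replicate 1) and 35963015 counts (PD30 replicate 2). The osteoblast lineage markers RUNX2 (19.1 to 33.3 CPM, counts scaled to library size with TMM factors), COL1A1 and SPARC were present in all 12 libraries, whereas SP7, BGLAP and IBSP were at 0.224 CPM or less. In 2 respects the libraries differed by group. Genes with a mean under 1 CPM took 0.175% to 0.205% of the counts in the Nutlin libraries against 0.101% to 0.127% in the other 9, and 19464 to 19626 genes had a count in the Nutlin libraries against 17871 to 18535 elsewhere. Relative to DMSO, among genes with a mean of at least 5 CPM, the median log2 level of the fifth richest in GC exceeded that of the fifth poorest in GC by 1.22, 0.88 and 0.63 in the 3 N+PD30 libraries, against -0.28 to 0.53 in the other 9. An alternative that removed the GC trend of each library was therefore added after seeing the data.

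Nutlin changed far fewer genes past the thresholds when PD0332991 was present. Without it, 1917 genes (11.9%) were higher and 1482 (9.2%) lower in Nutlin than in DMSO; with it, 571 (3.54%) were higher and 95 (0.59%) lower in N+PD30 than in PD30. These 2 comparisons share no library. With PD0332991, 349 genes were higher when the GC trend was removed, and 154 were lower with total-count scaling. Without PD30 replicate 1, 376 were higher and 72 lower, and without N+PD30 replicate 3, 707 were higher and 148 lower. Genes with an interaction numbered 796 below 0 (4.94%) and 851 above 0 (5.28%), and the median interaction of all genes tested was 0.06. When the GC trend was removed, 918 were below 0 and 510 above 0, so the share below 0 went from 48.3% to 64.3%. Without N+PD30 replicate 1, the shallowest library and the one with the steepest GC trend, 817 were below 0 and 874 above 0. The main fit had 796 and 851. Of these genes, 127 below 0 and 622 above 0 in the main fit had a mean of at least 5 CPM. When genes at that level were fitted alone, 171 were below 0 and 452 above 0. The median interaction over all genes at that level was 0.14 in the main fit and 0.04 when fitted alone.

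**Figure D1:**
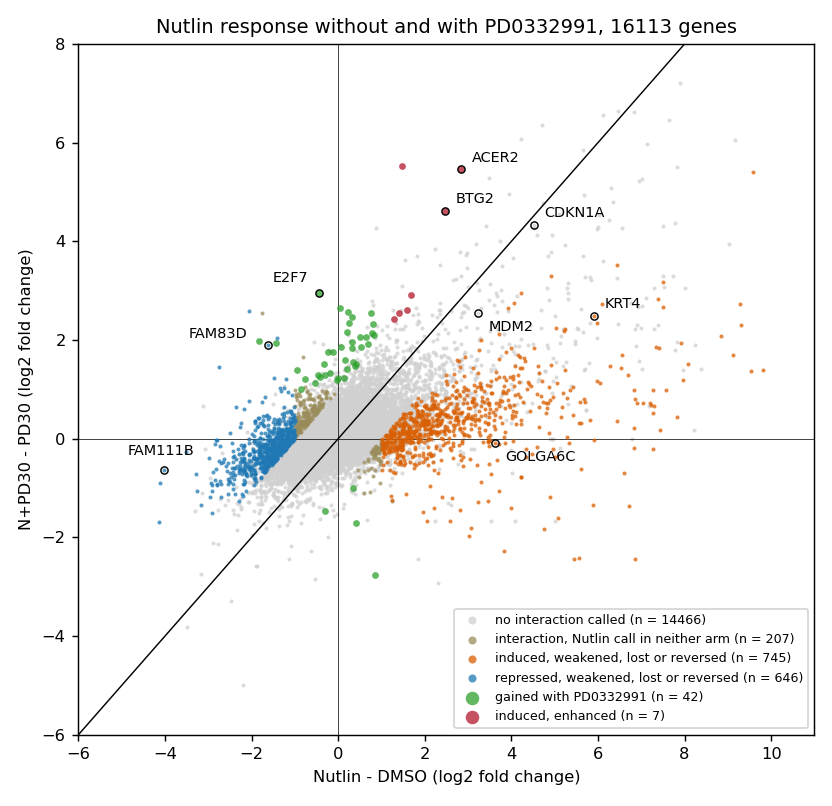
Each point is 1 of 16113 genes, with the log2 change from DMSO to Nutlin on the x axis and from PD30 to N+PD30 on the y axis, coloured by class; the diagonal marks equal responses, and circled genes are named. The coloured points below the diagonal on the right are the 745 induced genes with a smaller, absent or opposite change under PD0332991, those above it on the left are the 646 repressed ones, and CDKN1A lies close to the diagonal.

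The interacting genes were sorted by the Nutlin response without PD0332991 and by what remained of it. Of those induced by Nutlin, 89 kept a smaller rise that still passed an adjusted p of 0.05 with PD0332991 (weakened), 655 had no change past that threshold (lost), 1 changed in the opposite direction (reversed) and 7 rose more (enhanced). Of those repressed, 111 were weakened, 529 lost, 6 reversed and 0 enhanced. A further 38 genes rose and 4 fell with Nutlin only in a comparison with PD0332991 present (gained), and 207 had an interaction while neither Nutlin comparison passed both thresholds. Because the Nutlin - DMSO change enters the interaction with the opposite sign, an interaction against the response is the direction that the sorting favours, and the class sizes are a description. Lost means that the change did not pass the test, not that it was shown to be 0; when lost was instead set at a change under 1.5-fold in N+PD30, 217 induced genes were weakened, 489 lost and 39 reversed, and 95 repressed genes were weakened, 533 lost and 18 reversed. Without PD30 replicate 1 there were 42 induced weakened genes, and without N+PD30 replicate 2 there were 54 repressed weakened and 2 repressed reversed ones.

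**Figure D2:**
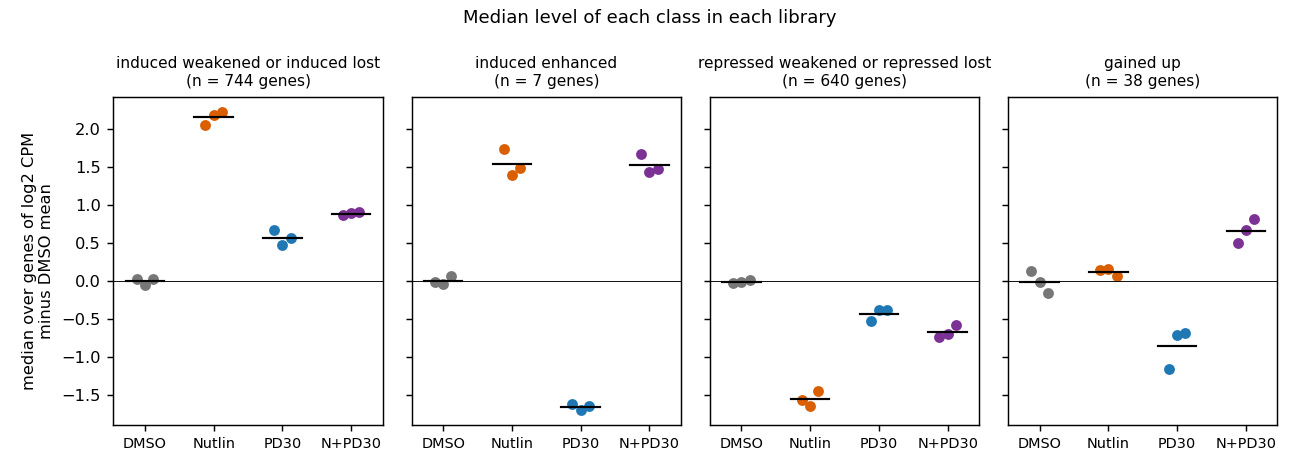
Each point is the median over the genes of a class of log2 CPM minus the DMSO mean in 1 of the 12 libraries, and bars are means of 3 libraries. The 744 weakened or lost induced genes stood at 0.88 to 0.91 in N+PD30 against 2.06 to 2.23 in Nutlin, and the 7 enhanced genes stood at 1.40 to 1.74 in Nutlin and 1.44 to 1.68 in N+PD30 but at -1.69 to -1.61 in PD30.

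The best known p53 targets still rose with Nutlin when PD0332991 was present. CDKN1A (chr6:36644237-36655114; gene coordinates are on hg19, from GENCODE), which encodes the CDK inhibitor p21, stood at 217, 189.8 and 139 CPM in DMSO and at 4044, 4429.8 and 3993 CPM in Nutlin. In PD30 its level was 123, 108 and 129 CPM, and in N+PD30 it was 2486, 2740.0 and 2065 CPM. Every Nutlin library was above every library without Nutlin, and all N+PD30 libraries lay below all Nutlin libraries. The log2 change was 4.51 ± 0.17 (SE) without PD0332991 and 4.34 ± 0.17 with it, and the interaction of -0.17 had a 95% interval of -0.62 to 0.28 (adjusted p = 0.603). With the GC trend removed it was -0.51 (adjusted p = 0.0647).

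MDM2 (chr12:69201957-69239324), the ubiquitin ligase that Nutlin occupies, was the most abundant of these genes. Its level was 2485, 2586 and 2588 CPM in DMSO and 29528, 22276 and 19945 CPM in Nutlin. With PD0332991 it was 1197, 1116 and 1494 CPM in PD30 and 6545, 7937 and 7814 CPM in N+PD30. The 4 groups did not overlap. Its log2 rise was 3.23 ± 0.16 without and 2.55 ± 0.15 with PD0332991, and the interaction of MDM2, -0.68 ± 0.20 (adjusted p = 0.0326), passed the p threshold but not the fold threshold. Quantile normalization, which ties the highest values of the libraries together, put it at 0.03 (adjusted p = 0.941), and the other alternatives kept it between -0.81 and -0.50, with adjusted p values up to 0.0829 on leaving out 1 library. PD0332991 itself lowered MDM2 by 1.01 on the log2 scale without Nutlin.

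Among the other genes that the study followed, TP53I3, a p53-induced quinone oxidoreductase, rose by 3.24 without and 3.0 with PD0332991 on the log2 scale, and BBC3, which encodes the cell death protein PUMA, by 2.71 and 3.24. Neither interaction passed the test (-0.24, interval -0.74 to 0.26, and 0.53, interval -0.53 to 1.58), but with the GC trend removed the interaction of TP53I3 was -0.61 (adjusted p = 0.0426) and the interaction of BBC3 turned to -0.14 (adjusted p = 0.823). CDK4 had an interaction of 0.25, CDK6 of -0.51, CCND1, the gene of cyclin D1, of -0.21 and RB1 of -0.06, all with an adjusted p over 0.05. The interaction of CDK6 passed that threshold, without reaching the fold threshold, with DESeq2 (adjusted p = 0.0166), RLE factors (0.0342), a replicate block (0.0458), the GC trend removed (0.00488) and without Nutlin replicate 3 (0.0379) or N+PD30 replicate 3 (0.0265). The interaction of CCND1 passed it with the GC trend removed (-0.37, adjusted p = 0.0469). RB1 was lower with PD0332991 both without Nutlin (log2 -1.21) and with it (-1.28).

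Responses whose interaction interval lay wholly within a 1.5-fold limit either way, at a mean of at least 5 CPM, were counted as kept, and there were 25 induced and 5 repressed ones. Among the largest were FAM212B (log2 change 2.61 without and 2.58 with PD0332991), TRIAP1, a small mitochondrial p53 target that opposes apoptosis (1.84 and 1.78) and ZNF79 (1.68 and 1.65). FAM212B stood at 11.6, 12.9 and 11.6 CPM in DMSO, 79.3, 71.7 and 69.3 CPM in Nutlin, 8.26, 8.57 and 7.77 CPM in PD30 and 49.4, 54.0 and 43.9 CPM in N+PD30. The groups did not overlap, both PD0332991 levels lay below their counterparts, and the interval of the interaction was -0.35 to 0.30. Kept repressed responses were those of SERTAD4 (-1.73 and -1.72), EDN1, the precursor of the vasoconstrictor endothelin-1 (-1.18 and -1.13), PPAT, the first enzyme of purine synthesis (-1.14 and -1.06), and AHR, the aryl hydrocarbon receptor (-1.07 and -0.84).

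Counted by list, 13 of 29 tested genes of p53 feedback and arrest, 10 of 24 of p53-dependent death and 33 of 56 of p53-dependent repair and metabolism rose with Nutlin without PD0332991, beside 11.9% of all genes tested. With PD0332991, 18, 12 and 36 of them rose, beside 3.54% of all. Their median interactions were 0.33, -0.09 and -0.03, beside 0.06 over all genes tested, and the last 2 were -0.18 and -0.23 with the GC trend removed. Interactions were called above and below 0 in 3 and 2 genes of the first list, 3 and 1 of the second and 4 and 4 of the third, beside 10.2% of all genes tested in both directions. CDC42BPG, a kinase of the MRCK family, had the interaction of -2.93 in the first list and TNFRSF10A, the death receptor DR4, that of -2.93 in the second; both were low genes, with N+PD30 means of 1.37 and 0.61 CPM, and without PD30 replicate 2 the interaction of CDC42BPG was no longer called (-2.03, adjusted p = 0.152). The third list held an interaction of 4.31 for SCO2, a cytochrome oxidase assembly factor, at a mean of 0.30 CPM with libraries at 0 in DMSO and in Nutlin, and the call was lost on leaving out any 1 of 9 libraries (adjusted p up to 0.341).

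**Figure D3:**
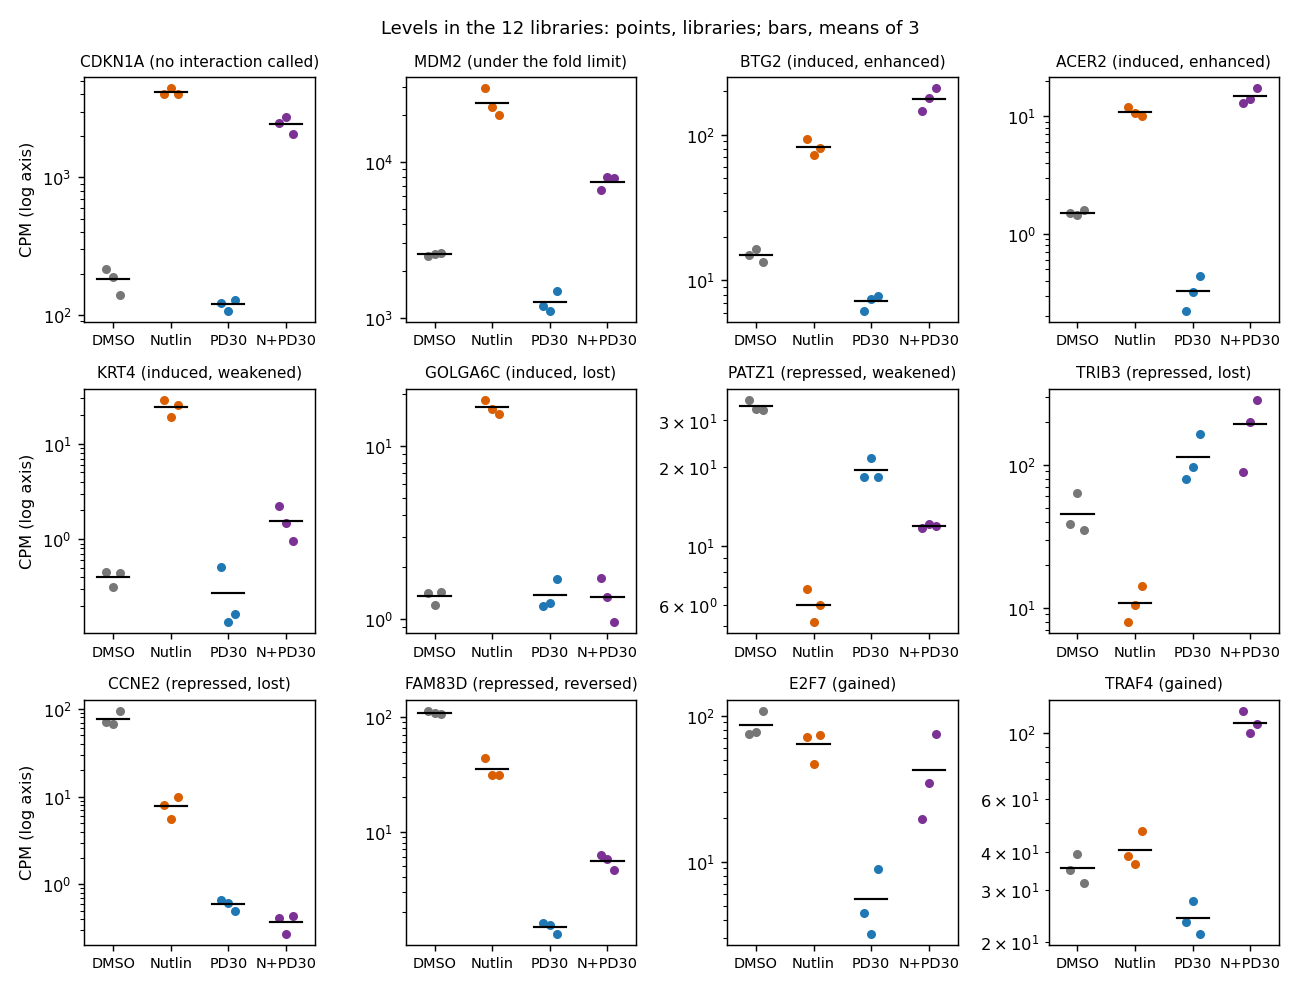
CPM on a log axis for 12 genes in the 12 libraries, with each point a library and each bar the mean of 3 libraries of a group. CDKN1A and MDM2 rose with Nutlin in both arms, KRT4 and GOLGA6C were highest in the Nutlin group, CCNE2 was lowest in both PD0332991 groups, and FAM83D fell with Nutlin without PD0332991 and rose with it.

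Genes induced by Nutlin and weakened or lost under PD0332991 were mostly low. Their median level was 1.10 CPM, and 112 of the 744 (15.1%) reached a mean of 5 CPM, against 67.9% of all genes tested. Their median log2 change was 2.34 without and 0.28 with PD0332991. PD30 was above DMSO for 623 of them and N+PD30 below Nutlin for 700, against 7784 and 7963 of all 16113 genes tested. Among the 1165 induced genes without an interaction, the numbers were 662 and 938. In the 744, both ends of the response thus mostly lay closer together, and these comparisons share libraries with the rule that sorted the genes. The excess of counts in low genes in the 3 Nutlin libraries moved with this class, and its part in the class was not tested.

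At a mean of at least 5 CPM, the weakened genes with the largest interactions were KRT4, IFITM10, CSMD3 and LOC100507495. KRT4 (chr12:53200333-53207900), a type II keratin of wet stratified epithelium, stood at 0.450, 0.311 and 0.439 CPM in DMSO and at 28.9, 19.0 and 25.7 CPM in Nutlin. In PD30 it was at 0.512, 0.135 and 0.164 CPM and in N+PD30 at 2.23, 1.47 and 0.961 CPM. Nutlin raised KRT4 above the untreated range in both arms, but every N+PD30 library was below every Nutlin library. Its interaction was -3.42 ± 0.63 (adjusted p = 0.00225). IFITM10 (chr11:1753636-1771825), of the interferon-induced transmembrane family, showed the other form, a raised starting level: 2.79, 1.83 and 1.57 CPM in DMSO, 22.1, 30.3 and 33.2 CPM in Nutlin, 11.9, 9.97 and 10.1 CPM in PD30 and 19.9, 19.5 and 15.0 CPM in N+PD30. PD0332991 alone raised IFITM10 by 2.36 on the log2 scale, and Nutlin added 0.77 to that, giving an interaction of -3.02 ± 0.29 (adjusted p = 8.83e-05). CSMD3, a large transmembrane protein of the CUB and sushi family, had an interaction of -2.79 and the uncharacterised LOC100507495 one of -2.78.

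Among the lost genes GOLGA6C, KRT77, MYO16 and TNXB led. GOLGA6C (chr15:75550675-75565796), of a golgin family with near-identical copies on chromosome 15 so that the assignment of its reads is uncertain, was at 1.41, 1.21 and 1.44 CPM in DMSO, 18.5, 16.3 and 15.4 CPM in Nutlin, 1.18, 1.24 and 1.70 CPM in PD30 and 1.74, 1.34 and 0.961 CPM in N+PD30. The 3 Nutlin libraries stood apart and the PD30 and N+PD30 libraries overlapped, and the interaction was -3.70 ± 0.30 (adjusted p = 3.15e-05). MYO16, an unconventional myosin, had its N+PD30 libraries within the PD30 range (interaction -2.92). KRT77, another keratin, and TNXB, the matrix protein tenascin-X, rose by 1.15 and 0.98 on the log2 scale with PD0332991 without passing the test (adjusted p = 0.0723 and 0.0652), and had interactions of -3.03 and -2.84. TNXB shares near-identical sequence with a neighbouring partial copy, so its level is uncertain.

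Several of these genes are epithelial. Of 28 tested genes of epithelial junctions and keratins, 11 rose and 1 fell with Nutlin without PD0332991 and 0 changed with it, and 5 had an interaction below 0 and 1 above 0. Over all genes tested these shares were 11.9% and 9.2% without PD0332991, 3.54% and 0.59% with it, and 4.94% and 5.28% for the interaction. PKP1, a desmosomal plakophilin, was at 0 CPM in all 3 DMSO libraries and at 2.37, 3.38 and 3.95 CPM in Nutlin, and did not exceed 0.128 CPM in PD30 or 0.331 CPM in N+PD30. OVOL1, a transcription factor of epithelial differentiation, followed the same course at 1.34, 1.74 and 2.09 CPM in Nutlin with at most 0.274 CPM in N+PD30. Their fitted interactions rest on groups at or near 0 counts and are not given as sizes. The defining epithelial markers EPCAM and CDH1 stayed at or under 1.34 CPM in every library, and the summed level of the 6 epithelial markers was 165 to 197 CPM in Nutlin, 189 to 265 CPM in DMSO, 122 to 151 CPM in PD30 and 112 to 192 CPM in N+PD30. Of the 5 of them tested, CDH1 and KRT8 rose with Nutlin without PD0332991, and CDH1 had an interaction below 0 (-1.58). Endothelial markers moved likewise at low levels: 3 of 4 tested rose with Nutlin without PD0332991 and 0 with it, 1 had an interaction below 0, and their sum was 3.99 to 5.68 CPM in DMSO, 10.03 to 11.7 CPM in Nutlin, 7.71 to 9.99 CPM in PD30 and 7.78 to 9.996 CPM in N+PD30, with CDH5 at 0.0828 CPM or less. The part of other cell types in these results was not tested. The 41 tested genes of extracellular matrix and adhesion had a median interaction of -0.17.

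The share of induced genes with an interaction against the response was highest at 1 to 5 CPM, with 55.4% of 522 genes. It was 32.6% of the 344 with a mean of at least 5 CPM and 13.5% of the 37 with at least 100 CPM. The share that also rose past both thresholds with PD0332991 was 10.5% under 1 CPM, 18.2% between 1 and 5 CPM, 41.6% from 5 CPM and 67.6% from 100 CPM. With depth the test can also detect more, and under 1 CPM, where 32.7% of 1051 genes had such an interaction, counts were few. Among repressed genes, 20.5% of 185 under 1 CPM and 48.5% of 301 between 1 and 5 CPM had an interaction against the response. The share was 46.4% of the 996 from 5 CPM and 20% of the 20 with at least 100 CPM. Repressed genes differed in the share also lowered past both thresholds with PD0332991, which did not climb with level. That share was 7.03%, 8.97%, 3.61% and 0% in the same order. From 5 CPM, however, 366 of the 996 passed the adjusted p threshold alone with PD0332991, and 88.4% kept their direction. These numbers depend on the scaling: genes from 5 CPM fitted alone gave 423 induced and 736 repressed, against the 344 and 996 here.

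**Figure D4:**
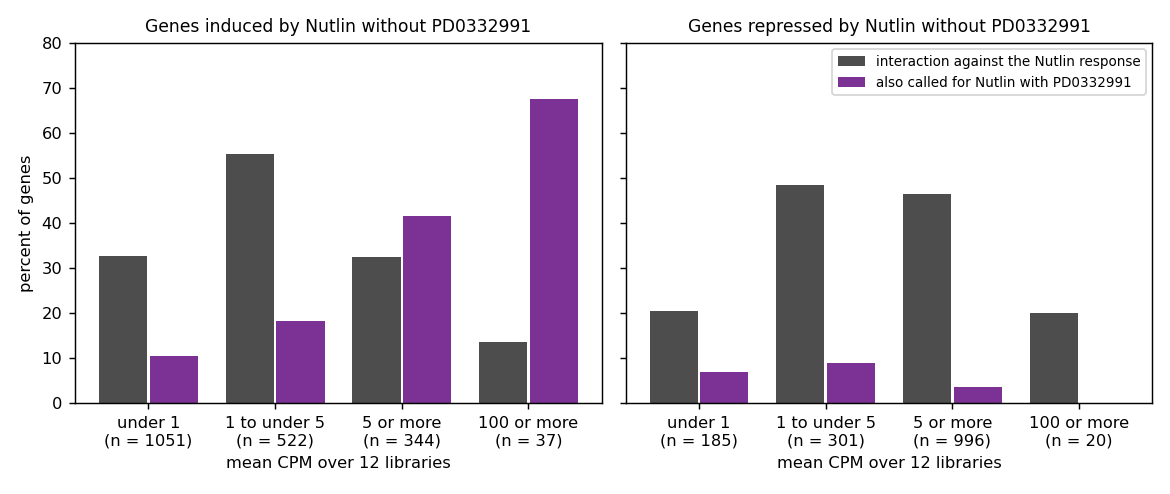
Bars give the percent of genes induced (left) or repressed (right) by Nutlin without PD0332991 that had an interaction against that response (dark) or were also called for Nutlin, in the same direction, with PD0332991 (purple), by mean CPM over 12 libraries; the 5 or more bars include the 100 or more genes. Among induced genes the purple bars climb from 10.5% to 67.6%, and among repressed genes they stay under 9%.

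Only 7 induced genes had a larger Nutlin response under PD0332991, namely ACER2, BTG2, PHLDB3, THSD1, KITLG, POLH and H19. BTG2 (chr1:203274619-203278730), an antiproliferative p53 target, stood at 15.0, 16.4 and 13.4 CPM in DMSO, 93.0, 72.3 and 81.4 CPM in Nutlin, 6.21, 7.49 and 7.79 CPM in PD30 and 145, 177 and 208 CPM in N+PD30. All 3 N+PD30 libraries were above all Nutlin libraries, and all PD30 libraries below all DMSO libraries. The rise was 2.46 ± 0.15 without and 4.62 ± 0.16 with PD0332991 in log2, an interaction of 2.16 ± 0.21 (adjusted p = 8.79e-05).

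ACER2 (chr9:19409007-19452503), an alkaline ceramidase of the Golgi and a p53 target, had the larger interaction of 2.62 ± 0.28 (adjusted p = 0.000125). It was at 1.5, 1.45 and 1.6 CPM in DMSO, 12, 10.7 and 10.0 CPM in Nutlin, 0.224, 0.324 and 0.438 CPM in PD30 and 13.0, 14.1 and 17.3 CPM in N+PD30. Here the levels with Nutlin differed little between arms (log2 0.44) and the larger response came with a PD30 level 2.18 below DMSO on the log2 scale. The fitted PD30 level was below DMSO for all 7 of these genes, with a log2 of -0.17 for PHLDB3, where the libraries overlapped. Over all 16113 genes tested PD30 was below DMSO for 8317, and a low PD30 level is what the sorting on a positive interaction favours. For POLH, the translesion DNA polymerase eta (interaction 1.02), and KITLG, the ligand of the KIT receptor (1.14), both named after their values were seen, the log2 of PD30 against DMSO was -1.66 and -2.90. THSD1 (1.15) and PHLDB3 (1.23) fell under the thresholds when the GC trend was removed or with quantile normalization, each of which left 4 genes in the class, PHLDB3 also without DMSO replicate 1 or 2, Nutlin replicate 1 or PD30 replicate 1, and H19 had a count in no PD30 library. On a linear scale, where differences of mean CPM are compared, 4 of the 7 kept a larger change under PD0332991.

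Genes repressed by Nutlin and weakened or lost under PD0332991 were expressed more highly, with a median of 9.01 CPM and 459 of 640 at 5 CPM or more. Their median log2 change was -1.56 without and -0.21 with PD0332991. In PD30, 492 of them were below DMSO, against 8317 of all 16113 genes tested, a direction that the sorting favours. The 640 genes fell into 2 groups by the size of that fall, a split made after the values were seen. For 166 genes PD0332991 alone lowered the level by more than 1 on the log2 scale (median -1.87), and N+PD30 was then below Nutlin for 121 of them. For the other 474 the median PD0332991 effect was -0.22, and N+PD30 was above Nutlin for all 474, a direction that the sorting fixes for them. When the GC trend was removed, 348 rather than 529 lost genes were counted. Leaving out N+PD30 replicate 1, the library with the steepest GC trend, gave 623 lost and 67 weakened. When genes at 5 CPM or more were fitted alone, 59 were weakened and 261 lost. At that level the main fit had 88 and 371. The parts of the GC trend and of the scaling in this class were not tested.

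In the first of these groups lay genes of the G1 to S transition. Of 63 tested genes of S phase and E2F targets, 24 had an interaction above 0 and 0 below 0, against 5.28% and 4.94% of all genes tested, and the median interaction was 0.66 beside 0.06 over all. DESeq2 called 23 above and 0 below, and at an unadjusted p under 0.05 edgeR gave 42 above and 0 below. Nutlin without PD0332991 lowered 30 of them, and with it 2 fell and 3 rose; the median PD0332991 effect without Nutlin was -3.87. Summed over the list, the level was 7193 to 7616 CPM in DMSO, 4578 to 4756 CPM in Nutlin, 759.97 to 834 CPM in PD30 and 747 to 850.4 CPM in N+PD30, so that the 2 groups with PD0332991 overlapped. In bulk RNA, fewer cells in a phase of the cycle and less RNA per cell cannot be told apart.

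CCNE2, which encodes cyclin E2, a CDK2 partner at S phase entry, had the highest interaction called in this list. It was at 70.3, 67.0 and 93.8 CPM in DMSO, 8.14, 5.52 and 9.91 CPM in Nutlin, 0.672, 0.620 and 0.492 CPM in PD30 and 0.414, 0.274 and 0.433 CPM in N+PD30. PD0332991 alone brought it under every Nutlin library, and the interaction of 2.57 ± 0.51 (adjusted p = 0.00358) set a fall of 3.29 against one of 0.72 that did not pass the test. FAM111B (chr11:58874658-58894885), a protease linked to DNA replication, showed the extreme, with 99.3, 99.5 and 112 CPM in DMSO, 6.70, 5.09 and 7.30 CPM in Nutlin and at most 0.270 CPM in either group with PD0332991. No library of those groups held more than 10 counts of it, and without N+PD30 replicate 3 its interaction of 3.40 no longer passed the test (2.84, adjusted p = 0.0555). E2F2, an activating E2F factor, had an interaction of 2.30 and PAQR4, a progestin and adipoQ receptor family member outside this list, of 2.61; PAQR4 overlaps PKMYT1 on the opposite strand, so its reads are uncertain.

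Of 71 tested genes of G2 and M phase, 8 had an interaction above 0 and 0 below 0 in edgeR, as in DESeq2, beside 5.28% and 4.94% of all genes tested (median 0.24; 22 above and 1 below at an unadjusted p under 0.05), although the median PD0332991 effect without Nutlin was -5.17. CENPA, the centromeric histone H3 variant, and HJURP, its chaperone, had the highest interactions called in this list. CENPA was at 33.1, 36.4 and 40.4 CPM in DMSO, 11.8, 7.65 and 10.8 CPM in Nutlin, 0.736, 0.539 and 0.492 CPM in PD30 and 0.828, 0.994 and 0.481 CPM in N+PD30 (interaction 2.27 ± 0.37, adjusted p = 0.00117). As with CCNE2, the N+PD30 and PD30 libraries of CENPA overlapped near 1 CPM or less. HJURP, at 126, 127 and 140.5 CPM in DMSO and 36.4, 29.3 and 36 CPM in Nutlin, did not exceed 1.73 CPM with PD0332991 and had an interaction of 1.70 ± 0.24.

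Not every such gene stayed low. TYMS, LIG1 and PCNA, named after their values were seen, belong to the S phase list and were gained, that is, Nutlin raised them under PD0332991 by 2.07, 1.51 and 1.59 on the log2 scale, while the changes without it were 0.50, 0.41 and 0.16 and did not reach the fold threshold. PCNA, the sliding clamp of DNA polymerases, rose from a mean of 33.6 ± 3.17 CPM in PD30 to 101 ± 4.93 CPM in N+PD30 (SD, n = 3). All 3 remained far below their DMSO means in N+PD30.

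The promoters of these genes were inspected for sequences bound by cell cycle and p53 factors, over 250 bases before to 50 after the start in RefSeq (GRCh38.p14), which had an entry for 10872 of the 16113 genes. On either strand, CCAAT, read by NF-Y, was present in 36.6% of all these promoters and in 54.3% of the 129 with an entry among the repressed genes that PD0332991 lowered by more than 1. The E2F sequence GCGGGAA was present in 9.75% and 18.6%, the cell cycle homology region TTTGAA or TTCGAA in 11.6% and 14.7%, and the p53 half-site in 5.49% and 5.43%. Among the 331 promoters of the other repressed weakened or lost genes the shares were 35.6%, 9.97%, 8.16% and 4.83%. For the 393 promoters of induced weakened or lost genes they were 34.6%, 5.34%, 14% and 5.34%. The p53 half-site was in 11.8% of the 51 promoters of induced weakened genes, 4.39% of the 342 of induced lost genes and 7.55% of the 649 of induced genes without an interaction. For the 583 promoters of repressed genes without an interaction, CCAAT was present in 41.5%, the E2F sequence in 10.5%, the cell cycle homology region in 16.1% and the p53 half-site in 5.32%. Absence says only that these letters are not in this window. The promoters of 3 lost genes and 1 gained gene are shown because they carry these sequences at different densities, with every match in capitals on the strand of the gene (a match on the opposite strand reads as its reverse complement): CENPA at chr2:26785806-26786105, plus strand, HJURP at chr2:233854486-233854785, minus strand, PAQR4 at chr16:2969098-2969397, plus strand, and E2F7 at chr12:77065520-77065819, minus strand.
CENPA: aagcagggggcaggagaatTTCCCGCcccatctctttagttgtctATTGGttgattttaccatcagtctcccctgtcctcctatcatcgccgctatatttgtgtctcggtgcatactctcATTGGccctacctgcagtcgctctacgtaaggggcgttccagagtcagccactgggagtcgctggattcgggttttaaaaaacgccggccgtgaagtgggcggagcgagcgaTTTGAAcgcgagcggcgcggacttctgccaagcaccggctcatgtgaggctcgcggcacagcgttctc
HJURP: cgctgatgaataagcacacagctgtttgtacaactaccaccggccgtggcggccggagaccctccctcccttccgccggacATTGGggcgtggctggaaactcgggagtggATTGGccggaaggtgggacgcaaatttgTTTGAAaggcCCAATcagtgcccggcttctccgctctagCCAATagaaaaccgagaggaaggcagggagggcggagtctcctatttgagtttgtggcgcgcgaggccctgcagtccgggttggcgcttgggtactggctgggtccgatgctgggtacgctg
PAQR4: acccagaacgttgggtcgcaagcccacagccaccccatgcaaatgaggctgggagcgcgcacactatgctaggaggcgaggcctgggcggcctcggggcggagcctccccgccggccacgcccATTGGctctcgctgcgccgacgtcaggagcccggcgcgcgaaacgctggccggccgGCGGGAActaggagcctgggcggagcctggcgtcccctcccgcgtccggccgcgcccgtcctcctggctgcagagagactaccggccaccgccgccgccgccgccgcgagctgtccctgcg
E2F7: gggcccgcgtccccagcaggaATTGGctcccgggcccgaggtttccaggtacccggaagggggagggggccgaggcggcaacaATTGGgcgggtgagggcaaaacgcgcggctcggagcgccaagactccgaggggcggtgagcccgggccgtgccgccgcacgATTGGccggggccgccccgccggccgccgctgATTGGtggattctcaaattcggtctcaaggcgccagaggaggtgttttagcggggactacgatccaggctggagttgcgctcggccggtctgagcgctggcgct
CENPA has 2 CCAAT, 1 E2F and 1 cell cycle homology match, HJURP has 4 CCAAT and 1 cell cycle homology match, PAQR4 has 1 CCAAT and 1 E2F match, and E2F7 has 4 CCAAT matches, which do not overlap one another.

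In the other 474 repressed genes, PD0332991 alone lowered the level by no more than 1 on the log2 scale or raised it. PATZ1 (chr22:31721790-31742332), a zinc finger transcription factor known to interact with p53, was at 35.9, 33.1 and 32.9 CPM in DMSO, 6.87, 5.16 and 6.00 CPM in Nutlin, 18.3, 21.6 and 18.3 CPM in PD30 and 11.8, 12.2 and 12 CPM in N+PD30. The 4 groups did not overlap, and Nutlin lowered PATZ1 in both arms, by 2.50 without and 0.70 with PD0332991 in log2 (interaction 1.80 ± 0.17, adjusted p = 8.79e-05). SALL2, a zinc finger factor, and CCNJ, the gene of cyclin J, took the same form with interactions of 1.97 and 1.88. MEX3A, an RNA-binding protein, also fell in both arms (-3.17 and -1.33, interaction 1.84) but was itself lowered by 1.46 by PD0332991.

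TRIB3 (chr20:343479-378203), a pseudokinase induced by ATF4, showed the response from a raised base. It stood at 38.6, 63.1 and 35.1 CPM in DMSO, 7.93, 10.5 and 14.2 CPM in Nutlin, 79.0, 96.8 and 164 CPM in PD30 and 89.1, 200.3 and 285 CPM in N+PD30. The PD30 and N+PD30 libraries overlapped, and the fall of 2.07 with Nutlin met a change of 0.76 under PD0332991 that did not pass the test, giving an interaction of 2.83 ± 0.54 (adjusted p = 0.00308). C12orf68 was the other large one, at 4.50, 3.84 and 2.98 CPM in Nutlin against 16.3 to 43.9 CPM in the other 9 libraries (interaction 2.74 ± 0.41). Of 30 tested genes of the unfolded protein and ATF4 response, 4 had an interaction above 0 and 1 below 0, with a median of 0.07, beside 5.28% and 4.94% of all genes tested. Next to TRIB3 the highest one called was DDIT4, an inhibitor of mTORC1, at 41.9, 44.6 and 45.9 CPM in N+PD30 against 5.96 to 23.2 CPM elsewhere (1.51 ± 0.48, adjusted p = 0.0411), a value that fell under the threshold in 10 of 19 alternatives.

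Growth factor response genes were also examined. Of 36 tested immediate-early and ERK feedback genes, 9 had an interaction above 0 and 0 below 0 in edgeR (median 0.45), beside 5.28% and 4.94% of all genes tested, 7 and 2 in DESeq2, and 17 and 4 at an unadjusted p under 0.05 in edgeR. Nutlin lowered 10 and raised 2 of the 36 without PD0332991, and lowered 1 and raised 3 with it. FOS, a subunit of AP-1, was at 2.13, 1.66 and 1.5 CPM in DMSO, 0.378, 0.498 and 0.224 CPM in Nutlin, 0.416, 0.431 and 0.410 CPM in PD30 and 0.993, 0.377 and 0.384 CPM in N+PD30. Either drug alone left FOS at 0.498 CPM or less and the combination overlapped with both (interaction 2.56 ± 0.53, adjusted p = 0.00476). EGR1, a zinc finger factor of the same early response, had an interaction of 2.29 ± 0.49, from levels of at most 2.52 CPM.

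Few reversals met both thresholds, and their number depended on the setting: 10 repressed genes with a replicate block, 13 with quantile normalization, 18 by size, 68 with the adjusted p alone, 3 with the GC trend removed, and from 2 without N+PD30 replicate 2 to 15 without DMSO replicate 3. The 6 repressed genes that rose with Nutlin under PD0332991 were FAM83D, MEX3B, NKX2-2, FAM110A, FAM212A and ZNF775, of which the first 3 had a mean of at least 5 CPM. FAM83D (chr20:37554955-37581749), a mitotic spindle protein, stood at 112, 108 and 107 CPM in DMSO, 43.9, 31.4 and 31.3 CPM in Nutlin, 1.60, 1.54 and 1.29 CPM in PD30 and 6.21, 5.76 and 4.61 CPM in N+PD30. Nutlin lowered it by 1.61 ± 0.14 in log2 without PD0332991 and raised it by 1.90 ± 0.18 with it, and no library of 1 group reached the range of another. The interaction was 3.51 ± 0.23 (adjusted p = 4.68e-06), with values between 3.29 and 3.69 under 19 alternatives.

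MEX3B, an RNA-binding protein related to MEX3A, went from 21.6, 16.3 and 15.1 CPM in DMSO to 6.04, 7.26 and 7.79 CPM in Nutlin, and from 5.57, 6.77 and 10.2 CPM in PD30 to 14.5, 13.8 and 17.4 CPM in N+PD30 (interaction 2.35 ± 0.30, adjusted p = 0.000287). With either drug alone every library was below the DMSO range, and the N+PD30 libraries overlapped that range. NKX2-2, a homeodomain factor, was at 13.3, 10.7 and 8.65 CPM in DMSO, 3.57, 3.10 and 3.73 CPM in Nutlin, 14.5, 15.1 and 16.7 CPM in PD30 and 23.2, 22.8 and 18.4 CPM in N+PD30. Its 4 groups did not overlap. The rise of NKX2-2 under PD0332991 was small, 0.47 with an adjusted p of 0.0497, after a fall of 1.65 without it (interaction 2.12 ± 0.23). HLF, a PAR bZIP factor at a mean of 1.11 CPM, was the 1 induced gene that fell under PD0332991 (1.57 and -1.11, adjusted p of the latter 0.0444).

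Responses that appeared with PD0332991 included E2F7 (chr12:77415028-77459349), a repressive E2F factor and p53 target. It was at 74.5, 77.5 and 107 CPM in DMSO, 71.0, 46.3 and 73.7 CPM in Nutlin, 4.48, 3.21 and 8.94 CPM in PD30 and 19.5, 34.4 and 74.3 CPM in N+PD30. The drop with PD0332991 and the rise on top of it were both large, and the N+PD30 libraries were spread from the PD30 side up to the Nutlin range. Its log2 change with Nutlin was -0.44 ± 0.40 without and 2.95 ± 0.45 with PD0332991 (interaction 3.39 ± 0.59, adjusted p = 0.00175). NEURL1B, a Neuralized family ubiquitin ligase, behaved alike, from 0.640, 0.809 and 0.602 CPM in PD30 to 4.88, 5.28 and 2.74 CPM in N+PD30 beside 42.4 to 55.5 CPM without PD0332991 (interaction 2.59 ± 0.31).

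TRAF4 (chr17:27071029-27077974), a TRAF family adaptor and p53 target, was gained from a base that PD0332991 lowered by 0.55 on the log2 scale. It stood at 34.8, 39.4 and 31.6 CPM in DMSO, 38.8, 36.4 and 47.2 CPM in Nutlin, 23.3, 27.4 and 21.4 CPM in PD30 and 118, 100.03 and 107 CPM in N+PD30. All N+PD30 libraries stood above all others, and the interaction was 1.96 ± 0.18 (adjusted p = 8.79e-05). HIC1, a p53-induced transcriptional repressor, rose by 2.57 with PD0332991 and by 0.22 without it (interaction 2.36 ± 0.57, adjusted p = 0.011), and ZNHIT2 by 1.40 after -0.95 (interaction 2.35). In 33 of the 38 genes gained upward PD30 was below DMSO, against 8317 of all 16113 genes tested. PD30 enters the interaction with a minus sign, so the sorting favours that direction. The median transcript GC content of the 38 genes was 57.8% against 48.1% over all genes tested. When the GC trend was removed, 22 rather than 38 were counted. PPARGC1B, a coactivator of mitochondrial genes, was the 1 gene gained downward at 5 CPM or more, with 4.39, 4.11 and 5.33 CPM in N+PD30 against 7.86 to 15.0 CPM in the other 9 libraries (interaction -1.15 ± 0.29, adjusted p = 0.013).

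In the remaining lists interactions were few. Interferon response genes had 2 of 32 above 0 and 0 below 0 in edgeR (5.28% and 4.94% of all genes tested; 1 and 0 in DESeq2, 8 and 1 at an unadjusted p under 0.05 in edgeR), IFIT2 (1.2) and CMPK2 (1.41), of which CMPK2 missed the threshold in 14 of 19 alternatives. None was called among 25 genes of cholesterol synthesis and uptake, 22 of heat shock, 23 of the NF-kB response, 40 of oxidative phosphorylation and 56 ribosomal proteins; at an adjusted p of 0.05 without a fold limit, edgeR found 1 above 0 and 3 below 0 among the heat shock genes and 0 in the other 4 lists. DESeq2 also called 0 in these 5 lists, and at an unadjusted p under 0.05 edgeR gave 0 cholesterol genes, 1 heat shock gene above 0 and 8 below 0, 2 NF-kB genes above 0 and 1 below 0, 3 oxidative phosphorylation genes below 0 and 7 ribosomal protein genes below 0. For the cholesterol genes the median log2 difference with PD0332991 was 1.83 without Nutlin and 1.82 with it, and that with Nutlin was 0.04 and -0.08.

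**Figure D5:**
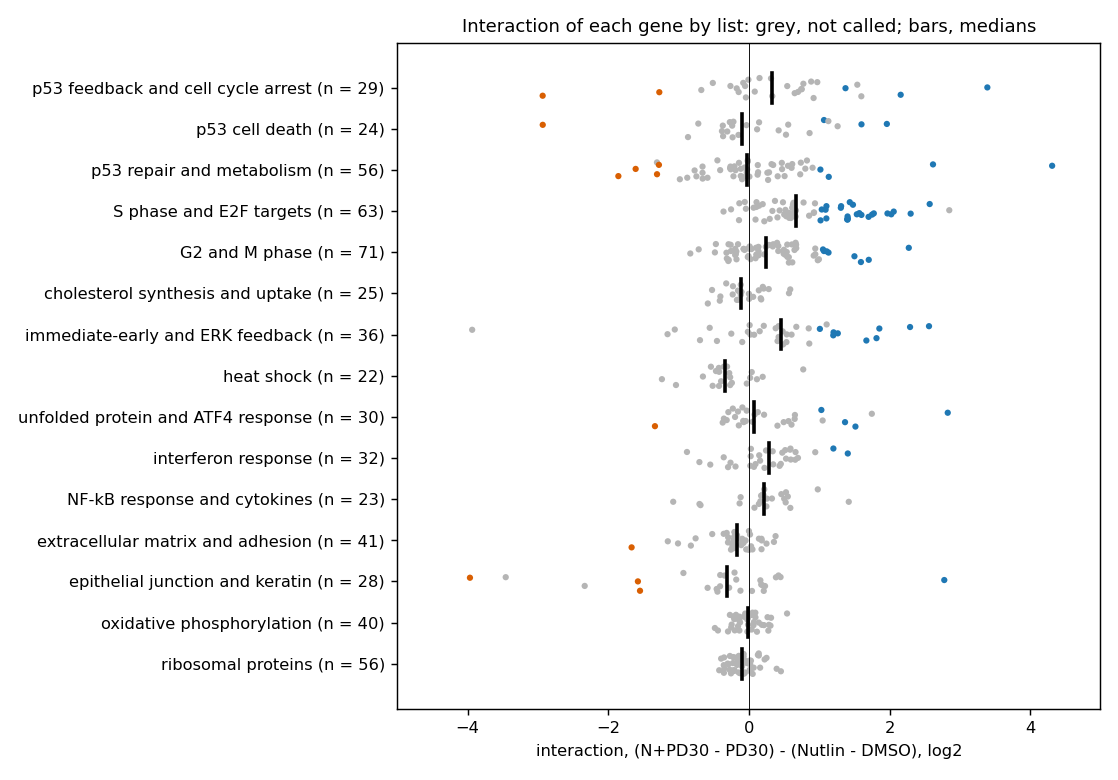
Each point is the interaction of 1 gene in log2, by gene list, with grey for genes not called, blue and orange for those called above and below 0, and bars for list medians; 2 genes of the epithelial list lie beyond the axis. S phase genes have the highest median, 0.66, and the 24 called ones all lie on the right.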

How the data were processed

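RNA of SJSA-1 cells was sequenced as single reads with the TruSeq RNA LT kit. The submitters' processing notes name TopHat, Bowtie2, hg19, HTSeq 0.6.0 and DESeq2. The authors deposited whole-number counts per gene symbol, which were used as counts although the file names call them variance-stabilized. The other deposited tables, of other conditions, of size-factor-scaled values and of the authors' own DESeq2 comparison (fold changes and p-values), were not used. Per the study's methods, HTSeq counted reads as reverse-stranded. Whether the kit keeps strand is not given in the sources used here, and 41 of the 61 genes chosen by rule overlap another annotated gene, whose reads may not be separable from theirs.

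The 12 libraries were joined by row (23368 rows, of which 28 carry names turned into dates) and grouped by their labels. edgeR 4.0.16 in R 4.3.3 (TMM, filterByExpr, quasi-likelihood test, no replicate block) was fitted to all 4 groups on 16113 genes, after being tested on simulated data. P-values were Benjamini-Hochberg adjusted over all genes. DESeq2 1.42.0 and voom in limma 3.58.1 were among the alternatives, with other scaling, no filter, a replicate block, other thresholds, a linear scale and each library left out. GC offsets and a 5 CPM minimum were added after seeing the data. Counting error at 12704845 to 35963015 counts per library limits low genes most.

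Genes were named by rule: those the study followed, the 4 largest interactions per class at 5 CPM or more, the 2 largest called per list and the largest kept responses; some of these genes are not reported here. Members and lists were chosen with earlier results of these data known. Promoters came from RefSeq (GRCh38.p14).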

Additional observations from a re-analysis of the deposited data

Results flagged for a closer look

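Among the genes named by rule, 3 had an interaction and a Nutlin response without PD0332991 past both thresholds, and a response in the opposite direction with PD0332991 past an adjusted p of 0.05. The difference was tested by the interaction term. The interaction was 3.51 for FAM83D, 2.35 for MEX3B and 2.12 for NKX2-2 (edgeR adjusted p = 4.68e-06, 0.000287 and 0.000125). The rise of NKX2-2 with PD0332991 rested on an adjusted p of 0.0497.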

How the results depend on the processing

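Of 1158 values for the 61 genes named by rule, 1114 kept their direction and side of the threshold, 44 fell under it and 0 reversed. DESeq2 gave 0 induced reversed and 2 gained down genes, RLE factors a p53 repair median of -0.083, total-count scaling 154 genes lower in N+PD30 - PD30, and no filter 2 induced reversed. Quantile normalization gave 3 induced reversed, 4 enhanced and 13 repressed reversed genes, with medians of 0.10 for p53 arrest, -0.11 for p53 repair and 0.054 for interferon, and the share of higher genes in Nutlin - DMSO went from 56.4% to 46.5%. With adjusted p alone there were 3193 interactions, 2060 above 0, with 7 induced reversed, 29 enhanced, 304 repressed weakened, 1482 lost, 68 reversed and 1 enhanced, 111 gained up, 40 gained down and 87 unclassed. Nutlin then called 3716 higher and 4683 lower, and 1597 and 1394 with PD0332991. Lost by size gave 217 induced weakened, 39 induced reversed and 18 repressed reversed.

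GC offsets gave 510 interactions above 0, 2 induced reversed, 4 enhanced, 348 repressed lost, 3 reversed, 22 gained up, 109 unclassed and 349 higher in N+PD30 - PD30. List medians were then -0.18 for p53 death, -0.23 for p53 repair, 0.55 for S phase, 0.29 for early genes, -0.48 for heat shock, -0.10 for the ATF4 response, 0.082 for interferon, -0.33 for matrix and -0.27 for ribosomal proteins. At 5 CPM or more there were 623 interactions (171 below and 452 above 0), with 38 induced weakened, 107 lost, 0 reversed, 59 repressed weakened, 261 lost, 24 gained up, 1 gained down and 124 unclassed. Nutlin then called 423 higher and 736 lower, and 308 and 38 with PD0332991. Fewer genes were tested (10942), and they were fitted alone. At this level the main fit called 344 higher and 996 lower with Nutlin without PD0332991. The median Nutlin - DMSO change at 5 CPM or more was -0.13 in the main fit and -0.002 in this one. The median interaction there was 0.14 and 0.042.

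Leaving out each library gave 42 to 92 induced weakened, 0 to 4 induced reversed, 54 to 130 repressed weakened, 2 to 15 reversed, 31 to 59 gained up, 1 to 7 gained down and 120 to 257 unclassed genes, 376 to 707 higher and 72 to 148 lower in N+PD30 - PD30, and medians of -0.17 to 0.041 for p53 death, -0.093 to 0.011 for p53 repair, 0.61 to 0.77 for S phase, 0.043 to 0.36 for G2 and M, 0.085 to 0.38 for interferon and -0.25 to 0.016 for ribosomal proteins. PD30 replicate 1 gave the lowest count for 6 of these 9 and N+PD30 replicate 3 the highest for 5. The cause of these shifts was not tested.

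The labels share replicate numbers without saying that these pair the libraries. The main fit had no replicate block because the study's methods name none. For correlations between libraries, the group mean of each gene was subtracted from log2 CPM, over genes with a mean of at least 5 CPM. Same-numbered libraries then correlated at -0.36 to 0.74, over 0.1 in 15 of 18 pairs. Among libraries of other groups, 10 of 12 libraries correlated best with their own number, a hint of pairing from the data only. With a replicate block there were 1800 genes with an interaction, 2 induced reversed and 10 repressed reversed genes.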
